A study of Mus musculus with 31 samples.

Results

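The Raet1 genes encode the RAE-1 proteins, a family of ligands for NKG2D, and were followed in the liver of mice lacking 1 or both isoforms of the transcription factor ChREBP. The family was taken as 7 gene names, namely Raet1a, Raet1b, Raet1c, Raet1d and Raet1e, H60b, a member of the related H60 ligands, and Ulbp1, which encodes the ligand MULT1. All probes carrying these names were collected. The array held 9 probes for 6 of the 7 genes and none named Raet1d. Of these, 6 probes of 4 genes (Raet1a, Raet1b, Raet1c and Raet1e) were among the 36057 probes and 23968 gene names of the deposited table. The family was chosen by its measured log2 signals, which differed strongly between the 2 mouse lines and were spread widely among mice lacking both isoforms, so these features are described below without a test.

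NKG2D is an activating receptor of natural killer (NK) cells and of some T cells. Its ligands are cell-surface proteins related to MHC class I, which healthy adult tissues usually carry at low levels and which can be induced by cell stress, proliferation or transformation. In mice the ligands fall into the RAE-1, H60 and MULT1 groups, and inbred strains are known to differ in the RAE-1 genes they carry.

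Groups were labeled ChREBPbeta_WT, ChREBPbeta_KO, ChREBPtotal_WT and ChREBPtotal_KO. They held 8 WT littermates of the ChREBPβ line, 8 ChREBPβ-deficient mice, 8 WT mice of the total ChREBP line and 7 total ChREBP-KO mice, with 1 array per mouse. All were C57BL6/J males, killed after a fast of 24 hours and a refeeding period of 18 hours with food and 20% glucose in the drinking water. ChREBPβ-deficient mice carried a CRISPR/Cas9 deletion of the β-specific exon of Mlxipl in every tissue. Total ChREBP-KO mice were Mlxipl-null and lacked both isoforms in every tissue. The study derived more than 1 ChREBPβ line per strain, and the line on the arrays, the age of the mice and whether the WT mice of the total line were littermates are not given in the sources used here. Replicate 3 of the total ChREBP-KO mice was not analysed here.

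Arrays correlated at 0.980 to 0.999 with one another, and 36928 to 41816 spots per array were well above background. They lay on 15 slides and were scanned on 2 days, each with all 4 groups. The Mlxipl probe A_55_P2119957 was lower in both knockout groups without overlap. It was at 14.40 to 14.84 in ChREBPβ-deficient mice against 14.88 to 15.33 in the WT mice of that line. In total ChREBP-KO mice it was at 13.89 to 14.30 against 15.14 to 15.48. Signal thus remained in mice lacking both isoforms, at a mean of 14.12, and what the probe reads there was not tested. All 10 hepatocyte marker genes listed for the tissue were above the filter.

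The 6 probes do not read 6 separate genes. By the accessions in the array annotation, probe A_55_P2091928 (named Raet1b) matches Raet1b and Raet1e, A_55_P2115955 (Raet1e) matches Raet1a, Raet1b, Raet1c and Raet1e, A_55_P2720213 (Raet1a) matches Raet1a, Raet1b, Raet1d and Raet1e, and A_55_P2745134 (Raet1b) matches Raet1b, Raet1c, Raet1d and Raet1e. Only A_66_P106148 (Raet1c) and A_66_P117930 (Raet1a) are tied by these accessions to 1 member each. The annotation places all 6 on the plus strand of chromosome 10 of mouse build mm9, from 21891829 to 22093901, and exons were not assigned here. Signals of the shared probes are therefore reported by probe, and the gene name is that of the array design. Where Raet1c is named alone below, it stands for probe A_66_P106148.

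The RefSeq gene table used here, made on assembly GRCm38.p6 of a C57BL/6J mouse, holds 4 of the 7 names, namely Raet1d, Raet1e, H60b and Ulbp1. A shared probe and the Raet1c probe are shown because the first was bright and the second was dimmer and changed less, each as the 60 bases of the probe, 5′ to 3′.
Raet1b, A_55_P2745134: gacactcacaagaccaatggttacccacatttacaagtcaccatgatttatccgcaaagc
Raet1c, A_66_P106148: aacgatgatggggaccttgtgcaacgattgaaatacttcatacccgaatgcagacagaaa

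Promoters of Raet1e and Raet1d from the same RefSeq assembly are shown because they are nearly the same sequence. Over the 298 bases that overlap when they are set side by side, 295 are identical, and capitals mark the 3 bases at which they differ. The first covers chr10:22173247-22173546 and the second chr10:22361644-22361943, both on the plus strand of GRCm38.p6. Each window holds 300 bases and ends shortly after the annotated start.
Raet1e: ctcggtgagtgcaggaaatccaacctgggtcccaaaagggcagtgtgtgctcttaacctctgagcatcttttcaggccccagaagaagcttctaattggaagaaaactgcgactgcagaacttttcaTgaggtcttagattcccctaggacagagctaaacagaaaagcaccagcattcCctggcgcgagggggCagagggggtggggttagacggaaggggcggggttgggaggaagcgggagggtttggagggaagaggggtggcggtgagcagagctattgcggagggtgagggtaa
Raet1d: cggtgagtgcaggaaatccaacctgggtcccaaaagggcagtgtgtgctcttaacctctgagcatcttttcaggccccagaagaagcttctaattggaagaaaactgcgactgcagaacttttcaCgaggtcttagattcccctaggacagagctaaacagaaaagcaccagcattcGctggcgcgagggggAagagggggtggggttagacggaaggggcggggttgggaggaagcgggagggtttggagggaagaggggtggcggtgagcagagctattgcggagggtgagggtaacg

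Each of these promoters holds 1 match to the GC box core GGGCGG, which begins 31 bases before the start of Raet1e and 33 bases before that of Raet1d, and 35.7% of the 32851 promoters in the table hold this motif on either strand. A second Raet1e promoter, at chr10:22158319-22158618, holds 3 matches. The E-box CACGTG (7.15% of promoters), the nuclear receptor half-site AGGTCA (16.3%) and the E2F motif TTTCGCGC (0.323%) were searched on both strands and had no match in the 3 RAE-1 promoters or in that of Ulbp1, and none of the 4 motifs contains another.

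The probe brightest on average over all arrays, A_55_P2091928 (Raet1b), was read at a log2 signal of 12.01 ± 0.35 (SD, n = 8) in WT mice of the ChREBPβ line, from 11.36 through a median of 12.13 to 12.34. ChREBPβ-deficient mice lay from 11.97 through 12.31 to 12.50, with a mean of 12.23 ± 0.21 (SD, n = 8). WT mice of the total line lay from 9.68 through 10.03 to 10.31, with a mean of 9.99 ± 0.25 (SD, n = 8). Total ChREBP-KO mice spanned 10.04 to 12.34 around a median of 11.23, with a mean of 11.36 ± 0.76 (SD, n = 7). The 2 groups of the ChREBPβ line overlapped, WT mice of the total line were all below them, and total ChREBP-KO mice filled the range between the 2 lines. In raw fluorescence, before normalization, these ranges were 2729 to 5724, 3824 to 5831, 802 to 1230 and 997 to 5711 in the same order of groups.

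**Figure D1:**
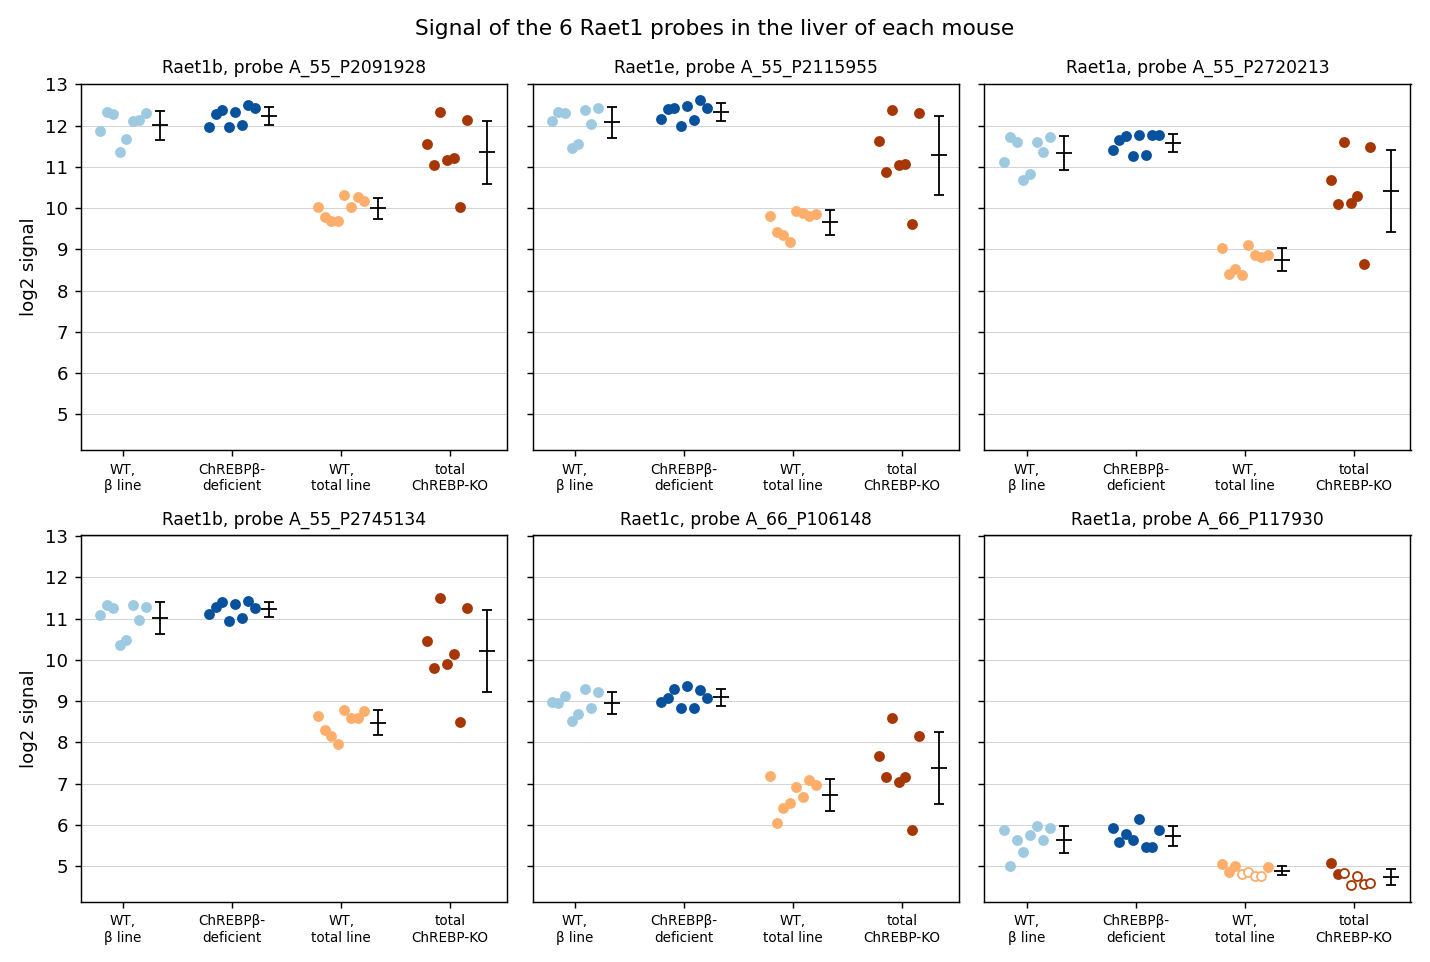
Log2 signal of each of the 6 Raet1 probes (vertical axis) in every mouse of the 4 groups (horizontal axis). Points are mice, open where the spot was not well above background, and bars give mean ± SD. For the 4 brightest probes, WT mice of the total line sit below all mice of the ChREBPβ line and total ChREBP-KO mice range from the one level to the other.

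WT mice of the 2 lines, which carry no deletion, differed at every probe of the family. The log2 signal in WT mice of the total line minus that in WT mice of the ChREBPβ line was -2.02 (standard error 0.21) at A_55_P2091928, 4.05-fold lower. The difference was -2.43 at A_55_P2115955 (Raet1e), -2.58 at A_55_P2720213 (Raet1a) and -2.53 at A_55_P2745134 (Raet1b). The Raet1c probe A_66_P106148 was at 6.73 ± 0.39 (SD, n = 8) in WT mice of the total line and at 8.95 ± 0.27 (SD, n = 8) in those of the ChREBPβ line, -2.23 apart. The second Raet1a probe, A_66_P117930, differed by -0.76 between means of 4.89 and 5.64. At 5 of the 6 probes all 8 WT mice of the total line were below all 8 WT mice of the ChREBPβ line, and over all probes 1.17% were separated in this direction, 0.721% in the other and 1.89% in either. By limma 17% of all probes were called between WT mice (8.12% higher and 8.92% lower in the total line). Since the family was chosen for this difference, nothing is read from these shares.

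The dim Raet1a probe A_66_P117930 was well above background in all 16 mice of the ChREBPβ line, in 4 of 8 WT mice of the total line and in 2 of 7 total ChREBP-KO mice. It passed the filter only through the ChREBPβ line, so its difference between lines is no support for the others. Its raw fluorescence was 24 to 32.5 in WT mice of the total line, near a local background of 15 to 33 (median per array). The 3 probes of H60b and Ulbp1 stayed under the filter. H60b was well above background on 0 of 31 arrays, and the 2 Ulbp1 probes on 1 and 3 arrays, with raw fluorescence of 15 to 55.5 over these 3 probes.

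Between the 2 groups of the ChREBPβ line, the family showed no call. The log2 differences of ChREBPβ-deficient mice from their WT littermates ran from 0.089 at A_66_P117930 to 0.25 at A_55_P2115955 and A_55_P2720213, and 0 of the 6 probes were called by limma (adjusted p = 0.9998 at each, with 0 at an unadjusted p under 0.05 and the lowest at 0.292). Over all probes 0.00277% were called in this comparison, which is 1 of 36059 and was lower. At A_55_P2091928 the difference was 0.22 with a 95% confidence interval of -0.20 to 0.64, which still includes a rise of up to 0.64 on the log2 scale. Of the 8 ChREBPβ-deficient mice, 3 were above every WT littermate at this probe, and the groups overlapped at all 6 probes, while 0.0222% of all probes were fully separated (0.00832% higher and 0.0139% lower).

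In total ChREBP-KO mice, 5 of the 6 probes were higher than in WT mice of the same line and 1 did not pass the test. A_55_P2091928 (Raet1b) rose by 1.36 on the log2 scale, a 2.57-fold higher signal (limma adjusted p = 1.17e-05). The standard error was 0.21 and the 95% confidence interval 0.93 to 1.80. The fit used 1 spread per probe for all 4 groups. Total ChREBP-KO mice were more widely spread at 5 of the 6 probes. Standard errors, intervals and limma p-values of this comparison may therefore be too small there. At A_55_P2091928 the knockout mice read 11.55, 11.04, 12.34, 11.17, 11.23, 10.04 and 12.14 in replicates 1, 2, 4, 5, 6, 7 and 8. Of these 7 mice, 6 were above all 8 WT mice and replicate 7 was within their range. Called probes made up 29.1% of all probes in this comparison, 14.5% higher and 14.6% lower. Both groups entered the choice of the family, the WT mice through the difference between lines and the knockout mice through their spread. The tests of all 6 probes in this comparison are therefore not independent of that choice.

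Shared probes rose by similar amounts. A_55_P2115955 (Raet1e) was at 11.28 ± 0.95 (SD, n = 7) against 9.65 ± 0.29 (SD, n = 8), a rise of 1.62 (limma adjusted p = 1.16e-05). A_55_P2720213 (Raet1a) was at 10.42 ± 0.99 (SD, n = 7) against 8.75 ± 0.28 (SD, n = 8), a rise of 1.68 (limma adjusted p = 1.40e-05). A_55_P2745134 (Raet1b), whose sequence is printed above, ran from 8.50 through a median of 10.13 to 11.49 in knockout mice and from 7.97 through 8.60 to 8.79 in WT mice, a rise of 1.74 or 3.34-fold (limma adjusted p = 7.67e-06). At each of these probes 6 of 7 knockout mice were above all WT mice, and at none did the groups separate fully, as 7.4% of all probes did (3.26% higher and 4.14% lower).

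**Figure D2:**
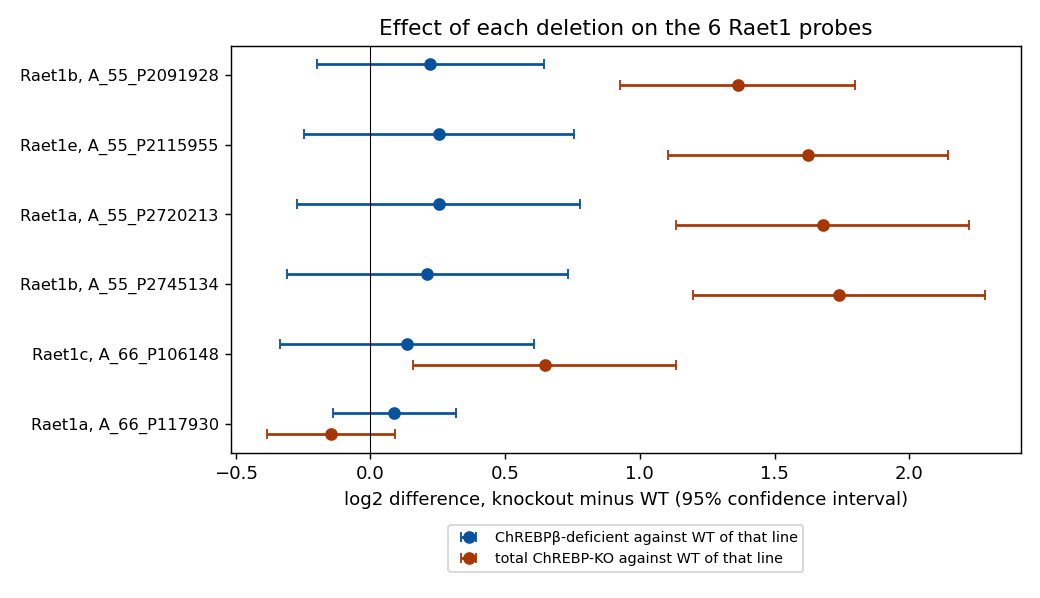
Log2 difference of knockout from WT mice of the same line (horizontal axis) at each of the 6 Raet1 probes (vertical axis), with 95% confidence intervals from the limma fit, for ChREBPβ-deficient mice (blue) and total ChREBP-KO mice (brown). Intervals of the ChREBPβ line all include 0, and those of the total line exclude 0 at 5 of the 6 probes. At these 5 probes total ChREBP-KO mice were more widely spread than the fit assumes, so their intervals may be too narrow.

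The Raet1c probe A_66_P106148 rose less, by 0.65 with a 95% confidence interval of 0.16 to 1.14 (limma adjusted p = 0.0409). Its 7 knockout mice read 7.66, 7.17, 8.58, 7.04, 7.16, 5.87 and 8.15 in the same order, against 6.04 to 7.18 in WT mice, so 3 of 7 were above all WT mice and replicate 7 was below all of them. It was no longer called when any 1 of 7 mice was left out (limma adjusted p from 0.0567 to 0.136), namely replicates 1, 4 and 8 of the knockout and 2, 3, 4 and 6 of the WT group, and under other settings given in the closing section. The dim Raet1a probe A_66_P117930 differed by -0.15 (95% confidence interval -0.38 to 0.091, limma adjusted p = 0.381).

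A two-sided exact permutation test of the mice was run in each line on the brightest probe under each of the 4 gene names. The p-values were adjusted over these 8 comparisons. In the total line the exact permutation test gave p = 0.000622 for the probe named Raet1b (A_55_P2091928). The exact permutation test gave p = 0.000932 for the probes named Raet1e (A_55_P2115955) and Raet1a (A_55_P2720213). The exact permutation p was 0.00249 after adjustment at all 3 probes, each with 6 of 7 knockout mice above all WT mice. All 3 are shared probes that match both Raet1b and Raet1e, and their pairs correlated at 0.996 to 0.997 over 31 arrays. They are therefore not results for 3 separate genes. The probe named Raet1c (A_66_P106148) gave an exact permutation p = 0.0834 (0.167 after adjustment), with 3 of 7 knockout mice above all WT mice. Since both groups entered the choice of the family, these p-values describe the mice and are no independent support. In the ChREBPβ line the exact permutation p was 0.122 to 0.277 (0.174 to 0.277 after adjustment).

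The knockout effect in the total line minus that in the ChREBPβ line was 1.14 (standard error 0.30) at A_55_P2091928, 1.37 (0.35) at A_55_P2115955, 1.43 (0.37) at A_55_P2720213 and 1.53 (0.37) at A_55_P2745134. It was 0.51 (0.33) at the Raet1c probe and -0.24 (0.16) at A_66_P117930. These values are given without a test because the lines and the knockout group both entered the choice of the family. Total ChREBP-KO mice were on average below ChREBPβ-deficient mice, with log2 differences of -0.88 (A_55_P2091928) to -1.71 (Raet1c), although replicate 4 was above all ChREBPβ-deficient mice at A_55_P2745134. The 2 knockout groups did not overlap at the Raet1c probe and at the dim probe A_66_P117930. Over all probes 10.4% were fully separated, 6.24% lower and 4.19% higher. Nothing is read from this, since the difference between lines entered the choice of the family.

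The spread among total ChREBP-KO mice was wide for 5 of the 6 probes. Their SD was 3.04 to 3.56 times that of WT mice of the same line at the 4 brightest probes and 2.27 times at Raet1c. At A_55_P2091928 it was 0.76, against 0.25 in WT mice and a median of 0.16 over all probes within the knockout group, and 98.8% of probes had a lower SD in that group. At A_66_P117930 the SD was 0.19. At the 4 brightest probes the mice had the same order, from replicate 7, the lowest, through 2, 5, 6, 1 and 8 to 4. At Raet1c replicates 2, 5 and 6 changed places, while replicate 7 was again lowest and 1, 8 and 4 the 3 highest. At A_66_P117930 replicate 5 was lowest and replicate 1 highest. Relative to the mean of the 8 WT mice, replicate 7 was at 0.043, -0.037, -0.089 and 0.020 on the log2 scale at A_55_P2091928, A_55_P2115955, A_55_P2720213 and A_55_P2745134, and at -0.86 for Raet1c. Replicate 4 was at 2.34, 2.72, 2.87 and 3.01 at the same 4 probes, within or above the range of the ChREBPβ line.

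**Figure D3:**
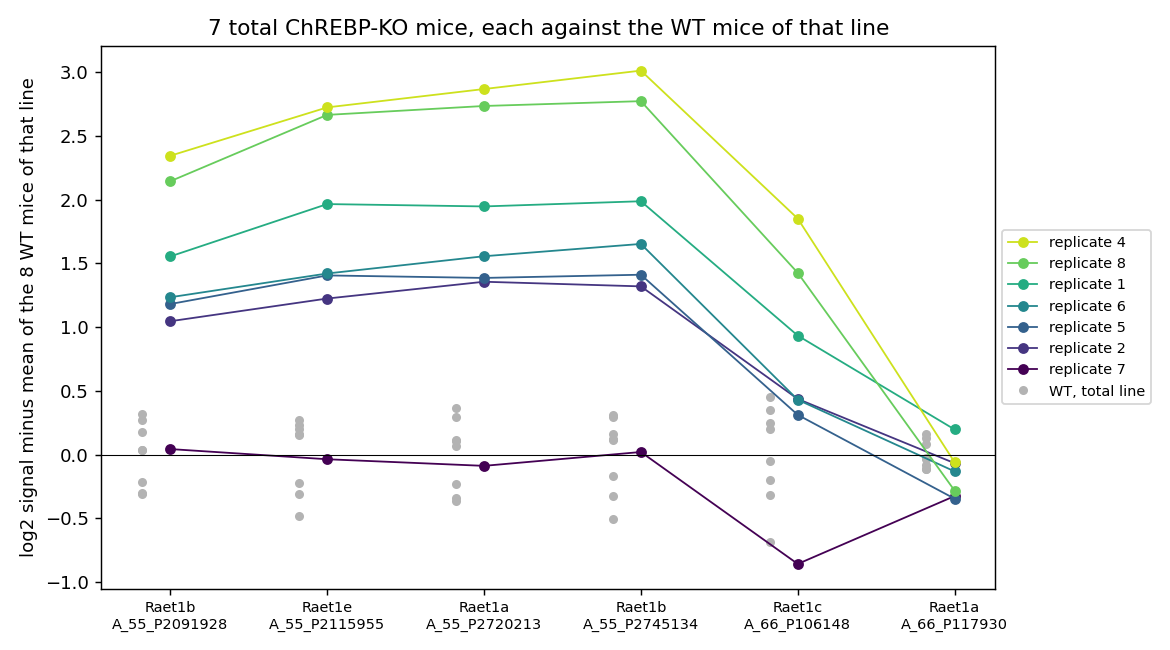
Log2 signal of each of the 7 total ChREBP-KO mice minus the mean of the 8 WT mice of that line (vertical axis) at the 6 Raet1 probes (horizontal axis), with 1 line per knockout mouse and WT mice in gray. Replicate 7 stays at the level of WT mice while replicates 4 and 8 lie 2.14 to 3.01 above it at the 4 brightest probes.

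Across the 7 knockout arrays, pairs of the 5 brighter probes had correlations of 0.988 to 0.999, and the dim Raet1a probe correlated with them at 0.33 to 0.41. The shared probes match overlapping sets of transcripts, so these correlations do not come from independent genes. Within the 4 groups together, after each group mean was taken off, pairs of the 5 probes correlated at 0.92 to 0.99 over 31 arrays.

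The 2 scan days gave different sizes of the knockout effect. On the first day, A_55_P2091928 read 11.04 to 12.34 in 4 knockout mice and 9.68 to 10.03 in 4 WT mice, a difference of 1.73. On the second, it read 10.04 to 12.14 in 3 knockout mice and 10.03 to 10.31 in 4 WT mice, a difference of 0.94 (limma adjusted p = 0.0609), and the groups overlapped through replicate 7. On the second day alone, A_55_P2745134 was the 1 probe of 6 that was called. The line difference of WT mice was -2.12 and -1.92 on the 2 days.

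**Figure D4:**
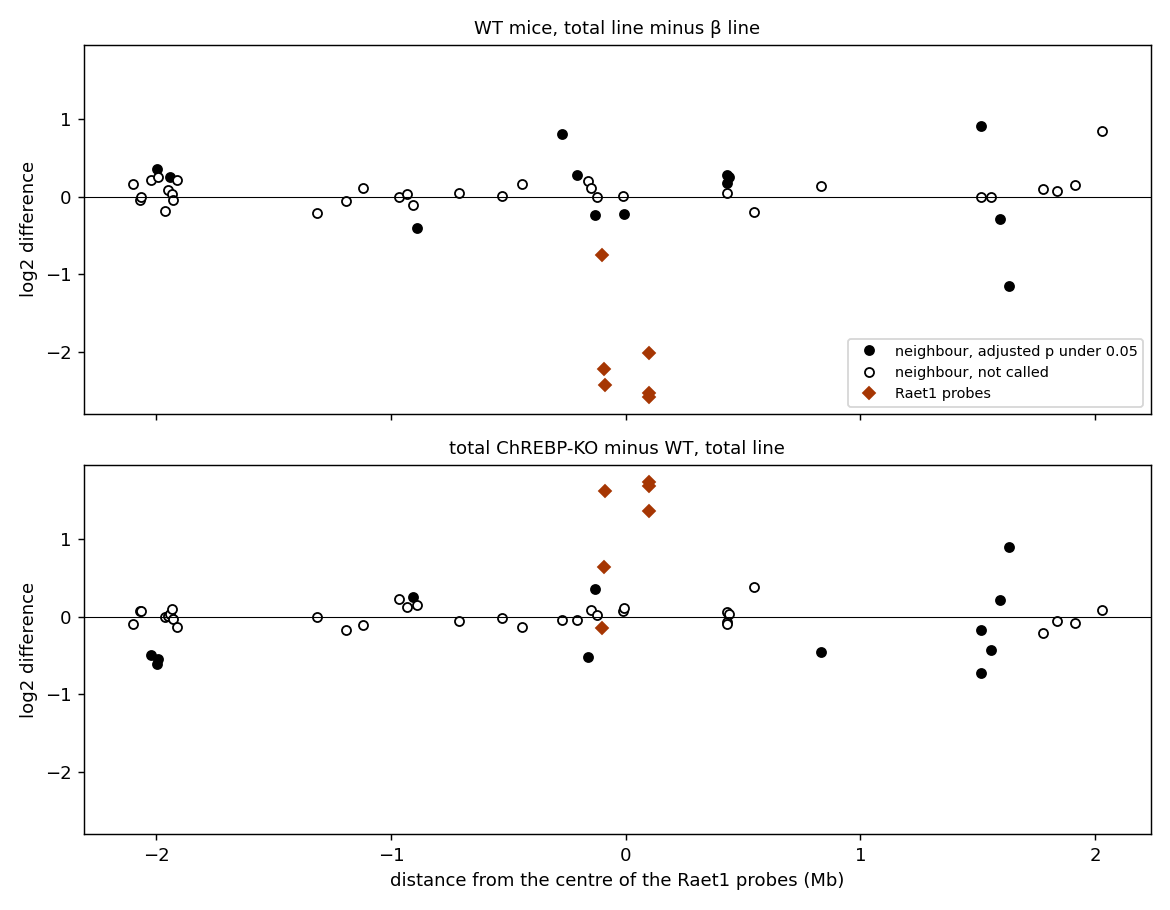
Log2 difference (vertical axis) of 45 probes of other genes within 2 Mb of the Raet1 probes and of the 6 Raet1 probes, against distance from their centre in Mb (horizontal axis), between WT mice of the 2 lines (top) and between total ChREBP-KO and WT mice (bottom). Filled points passed the test over all probes, and neighbours lie between -1.15 and 0.91 in both panels.

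Genes next to the family on chromosome 10 moved in both directions. Within 2 Mb, 45 probes of 33 other gene names were tested. Between WT mice of the 2 lines, 8 were higher and 5 lower in the total line (28.9% called, against 17% of all probes), with a median difference of 0.051. In total ChREBP-KO mice 4 were higher and 8 lower (26.7%, against 29.1% of all probes), with a median of -0.013. In the ChREBPβ line 0 of the 45 were called by limma, with 1 at an unadjusted p under 0.05. Within 0.5 Mb, 7 of 15 probes (46.7%) were called between WT mice, 5 higher and 2 lower.

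Among the 10 neighbours with the smallest p between WT mice, Vnn1, which encodes the pantetheinase vanin 1, ran in the same direction as Raet1b. Vnn1 differed by -1.15 in WT mice of the total line from those of the ChREBPβ line (limma adjusted p = 0.00178) and by 0.89 in total ChREBP-KO mice from their WT (limma adjusted p = 0.00887). For the related gene Vnn3 these differences were -0.29 (adjusted p = 0.00993) and 0.22 (adjusted p = 0.0418). The ribosomal protein gene Rps12 ran the other way at probe A_52_P415440, 0.91 higher in WT mice of the total line (adjusted p = 6.61e-06) and -0.73 apart in knockout mice (adjusted p = 5.63e-05), while its brighter probe A_55_P1989328 differed by -0.00033 between WT mice (adjusted p = 0.998).

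Sgk1, encoding a serum- and glucocorticoid-regulated kinase, was 0.80 higher in WT mice of the total line (limma adjusted p = 0.0033), and Aldh8a1, an aldehyde dehydrogenase, differed by -0.40 (adjusted p = 0.00428). Map7 was 0.36 higher at A_55_P1959903 and fell by 0.61 in total ChREBP-KO mice (adjusted p = 1.67e-05). Its brightest probe, A_55_P2804587, was not called between WT mice (0.25, limma adjusted p = 0.0866) and fell by 0.54 in total ChREBP-KO mice (adjusted p = 0.000174). E030030I06Rik gave probes of opposite direction in total ChREBP-KO mice, 0.35 at A_55_P2150283 and -0.51 at A_55_P2150294. The rest of the 10, namely 4930444G20Rik, Tbpl1 and Slc2a12, were higher by 0.17 (Slc2a12) to 0.28 (4930444G20Rik) in WT mice of the total line and did not pass the test in knockout mice. Another Tbpl1 probe, A_55_P2018442, differed by 0.051 between WT mice (limma adjusted p = 0.687).

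Genes of the receptor and its adaptors showed no call. Klrk1, which encodes NKG2D itself, read 6.32, 6.36, 6.19 and 6.17 on average in WT and knockout mice of the ChREBPβ line and WT and knockout mice of the total line, and differed by -0.020 between the last 2 groups (limma adjusted p = 0.912). Its adaptor genes Hcst (DAP10) and Tyrobp (DAP12) differed by 0.15 and 0.13 (adjusted p = 0.399 and 0.618). Of 14 genes of the receptor and its signaling, 0 were called by limma in either knockout comparison or between WT mice, and at an unadjusted p under 0.05 there were 0 in total ChREBP-KO mice, 1 in ChREBPβ-deficient mice and 1 between WT mice. Over all genes, read by their brightest probe, 29.3% were called in total ChREBP-KO mice (14.4% higher and 14.8% lower), 0.00417% in ChREBPβ-deficient mice and 17.1% between WT mice (7.79% higher and 9.36% lower in the total line).

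Of 20 listed markers of NK cells and type 1 innate lymphoid cells, 11 passed the filter. Klra1 averaged 9.75 to 9.94 in the 4 groups. Among markers under the filter, Ncr1 and Eomes were well above background on 2 and 1 of 31 arrays. Ifng, Xcl1 and Klre1, also under the filter, were so on 26, 17 and 16 arrays. In total ChREBP-KO mice 0 of the 11 were called by limma and 0 were at an unadjusted p under 0.05, with a median difference of 0.0080. The summed linear signal of the 11 was 1582 to 1918 in WT mice of the total line and 1231 to 2280 in total ChREBP-KO mice, so the ranges overlapped. In bulk tissue, fewer cells of a type and less RNA per cell cannot be told apart. Between WT mice, Klra4, an NK receptor of the Ly49 family, was 0.28 higher in the total line (limma adjusted p = 0.0327) and the other 10 were not called.

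Other cell types gave few calls in total ChREBP-KO mice, in which 14.4% of all genes were called higher and 14.8% lower. Of 9 T cell markers Cd5 rose by 0.36 (limma adjusted p = 0.00748) and 8 were not called. Of 11 Kupffer cell and macrophage markers 0 were called by limma (0 at an unadjusted p under 0.05), with a median of 0.091. Of 6 cholangiocyte markers Epcam rose by 0.97 (limma adjusted p = 0.0101) and 5 were not called. It was spread widely, from 5.49 to 8.79 in total ChREBP-KO mice against 5.25 to 5.84 in WT mice. The median difference of the 6 was 0.46, with Krt7 and Sox9 at -0.075 and -0.40. Of 8 endothelial and stellate cell markers Reln rose by 0.80 (limma adjusted p = 8.43e-05) and 7 were not called, with a median of 0.092. Of 6 adipocyte markers 0 were called by limma in total ChREBP-KO mice (0 at an unadjusted p under 0.05), while Cidec, a lipid droplet protein, was -2.03 apart between WT mice (adjusted p = 0.00139). Pecam1, an endothelial marker, was 0.21 higher in WT mice of the total line (adjusted p = 0.0187). Of 6 exocrine pancreas markers, Cel and Ctrb1 fell by 0.80 and 0.77 (limma adjusted p = 0.0478 and 0.0464). Cela2a and Ctrb1 were 2.13 and 0.84 higher in WT mice of the total line than of the ChREBPβ line (adjusted p = 0.00246 and 0.0390), and Prss1 and Cpa1, which define acinar cells, were well above background on 5 and 11 arrays.

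Summed linear signals of T cell, Kupffer cell, exocrine pancreas and cholangiocyte markers overlapped between total ChREBP-KO and WT mice of that line. They were 15012 to 25369 against 15035 to 21119 for T cells and 16508 to 24446 against 13708 to 26921 for Kupffer cells. For exocrine pancreas they were 14847 to 35992 against 18203 to 35996, and for cholangiocytes 3340 to 12188 against 2946 to 5923. Sums of the hepatocyte markers did not overlap, at 1686560 to 1852350 against 1475450 to 1666880. Over the 7 knockout mice, summed marker signals correlated with A_55_P2091928 at -0.79 for T cells, -0.56 for NK cells, -0.22 for Kupffer cells and 0.78 for exocrine pancreas, 7 points of 1 group, and the number of spots well above background correlated with it at -0.53. Their part in the result was not tested.

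Ligands of other NK cell receptors included genes that rose with the knockout. Of 9 such genes above the filter, 3 rose in total ChREBP-KO mice, against 14.4% of all genes called higher. Clec2h, a C-type lectin, rose by 3.69 (limma adjusted p = 3.76e-07), from 5.54 to 8.32 in WT mice to 9.70 to 11.48, with no overlap. Clec2d, a ligand of the inhibitory receptor NKR-P1B, rose by 1.26 (adjusted p = 1.55e-05) and differed by -0.91 between WT mice of the total and of the ChREBPβ line (adjusted p = 0.00164). For Clec2h the difference between WT mice was -1.41 (adjusted p = 0.0297). Pvr, a ligand of DNAM-1, rose by 0.63 (adjusted p = 4.72e-07), while WT mice of the 2 lines differed by 0.18 (adjusted p = 0.118). The 6 others, among them Cd48, a ligand of 2B4, and H2-T23, which encodes Qa-1, were not called.

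Of 9 genes of MHC class I and its antigen processing, 7 fell in total ChREBP-KO mice and 2 were not called. Over all genes 14.8% were called lower in this comparison. The median difference was -0.47 over the 9 and 0.0078 over all genes. The peptide transporter genes Tap1 and Tap2 fell by 0.58 and 0.57 (limma adjusted p = 0.000149 and 5.59e-09), and the immunoproteasome genes Psmb8 and Psmb9 by 0.51 and 0.50. H2-K1 and H2-D1, the classical class I genes, fell by 0.40 and 0.31. B2m, the light chain of class I, and Tapbp differed by 0.055 and -0.073 and were not called. Between WT mice of the 2 lines 0 of the 9 were called by limma, with 3 at an unadjusted p under 0.05.

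Some genes of cell stress and DNA damage were called. Over all genes 29.3% were called in total ChREBP-KO mice (14.4% higher and 14.8% lower) and 17.1% between WT mice. Nothing is read from the DNA damage count in total ChREBP-KO mice. Of 11 heat shock and integrated stress genes 5 rose in total ChREBP-KO mice, among them the stress transcription factors Ddit3 by 1.89 and Atf3 by 1.80 and the chaperone genes Dnajb1 by 0.72 and Hsph1 by 0.67, and 6 were not called. Hspa1a, an inducible heat shock protein, was 1.43 higher in WT mice of the total line than of the ChREBPβ line (limma adjusted p = 0.00102), with a knockout difference of 0.74 (adjusted p = 0.0666). Of 14 DNA damage genes, Chek1 rose by 0.36 and Trp53 and Atr fell by 0.47 and 0.28, and 11 were not called. Cdkn1a, encoding the cell cycle inhibitor p21, was 1.99 higher in WT mice of the total line (adjusted p = 0.0104) and Gadd45b 1.15 higher (adjusted p = 0.0103). Of the 14 genes 4 were called higher and 1 lower there.

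Of 13 cell cycle and E2F genes 5 rose and 4 fell in total ChREBP-KO mice, against 14.4% of all genes called higher and 14.8% lower. E2f1 rose by 0.84 and Mki67, a proliferation marker, by 0.75, while Rrm2, a ribonucleotide reductase subunit, fell by 3.52 and E2f2 by 1.22 (limma adjusted p = 1.1e-12 for Rrm2 and 0.0073 for Mki67). Of 11 retinoic acid response genes 2 rose and 1 fell, a share near the 29.3% called over all genes. Cyp26a1, which degrades retinoic acid, ran from 7.22 to 9.74 in WT mice of the total line and from 8.29 to 11.85 in total ChREBP-KO mice, a rise of 1.73 (adjusted p = 0.0104). It lay from 9.002 to 12.51 in WT mice of the ChREBPβ line, and WT mice of the 2 lines differed by -2.47 (adjusted p = 0.000788). Aldh1a1, a retinal dehydrogenase, rose by 0.67 and Dhrs3, a retinal reductase, fell by 0.46. Over the 7 knockout mice the summed signal of this list correlated with A_55_P2091928 at 0.83, that of the cell cycle list at 0.53, of the MHC class I list at 0.53, of the DNA damage list at -0.48 and of the heat shock and stress list at -0.65. Their part in the result was not tested.

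Of 10 hepatocyte markers 3 rose in total ChREBP-KO mice, against 14.4% of all genes called higher, and nothing is read from this count. Alb, 1 of the 10, read 18.96 in every mouse after quantile normalization and so could not be called. Cyp2e1, Cps1 and Ttr rose by 0.69, 0.44 and 0.17, while Cyp2e1 and Arg1 were lower in WT mice of the total line (-0.27 and -0.37). All 12 genes of a list of ChREBP targets, which includes Mlxipl, fell by limma in total ChREBP-KO mice, with a median of -3.17. Rgs16 fell by 6.37. The glucose-6-phosphatase gene G6pc fell by 4.79, the pyruvate kinase gene Pklr fell by 3.99 and the elongase gene Elovl6 fell by 3.68. The H60 ligands H60a and H60c did not pass the filter. In ChREBPβ-deficient mice, Mlxipl was the 1 gene called over all these lists.

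The 5 genes whose log2 signal varied most like that of A_55_P2091928 over 31 arrays, by Pearson's r, were BC098222 (0.88), Hsd17b7 (0.87), 9530053H05Rik (0.87), 2210039B01Rik (0.87) and Chpt1 (0.86). The arrays fall into groups at different levels, which all of these values include. Hsd17b7, a hydroxysteroid dehydrogenase of cholesterol synthesis, was at 10.40, 10.53, 9.59 and 9.90 on average in the 4 groups, ChREBPβ line first and WT before knockout in each line. Chpt1, a choline phosphotransferase, was at 8.85, 9.002, 8.23 and 8.65. Between WT mice, the 5 differed by -0.62 (Chpt1) to -1.45 (2210039B01Rik), and in total ChREBP-KO mice by 0.31 (Hsd17b7) to 0.74 (2210039B01Rik). These genes lie on chromosomes 1, 10, 12, 16 and 19, and Chpt1, on chromosome 10, starts at 87936834, outside the windows used for neighbors.

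**Figure D5:**
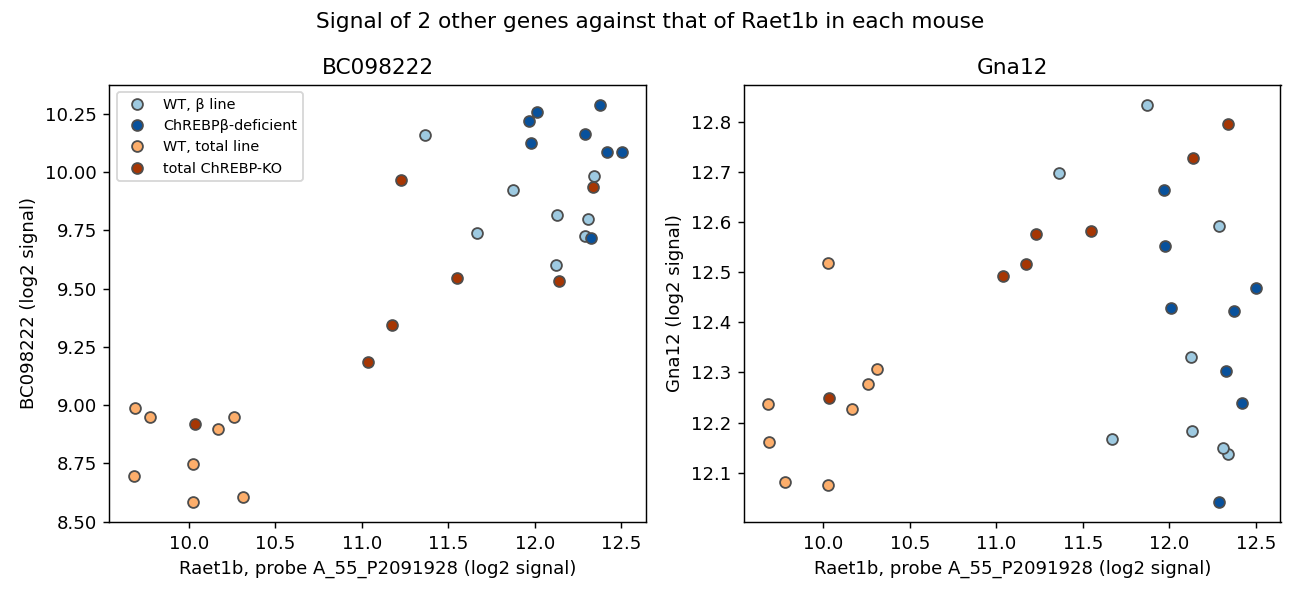
Log2 signal of BC098222 (left) and Gna12 (right) against that of Raet1b probe A_55_P2091928 in each mouse, with points colored by group. BC098222 follows Raet1b through the group levels (r = 0.88 over 31 arrays), and Gna12 follows it among the 7 total ChREBP-KO mice (r = 0.99) and not over all arrays (r = 0.31).

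Within the 7 total ChREBP-KO mice the highest correlations were those of Mrpl27 (0.99), Gna12 (0.99), Nox4 (0.99), D5Ertd579e (0.99) and Tpmt (0.99), out of 36050 probes compared over 7 arrays. None of them is among the 5 named for all arrays. Over 31 arrays the same genes correlated with A_55_P2091928 at -0.13 to 0.78. Nox4, an NADPH oxidase, rose by 0.996 in the same knockout mice against WT (limma adjusted p = 1.04e-08), Gna12, a G protein subunit, by 0.33 (adjusted p = 0.0165) and Tpmt, a thiopurine methyltransferase, by 0.47 (adjusted p = 0.000321), while Mrpl27, a mitochondrial ribosomal protein, differed by 0.083 (adjusted p = 0.123).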

How the data were processed

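Liver RNA was labeled with Cy3 and hybridized to one-color Agilent arrays, 1 per mouse. The authors deposited Feature Extraction 10.10.1.1 output, in which each spot has a fluorescence intensity that was not yet normalized, and a log2 table made from median intensities by filtering, quantile normalization and the median of repeated probes. These steps were repeated here. A spot had to be found, positive and well above background on 26 arrays or on 6 of 1 group, which left 36059 probes. Results differed from the deposited log2 values of the members by -0.007 to 0.022. All 4 groups entered 1 limma fit (limma 3.58.1, R 4.3.3), with Benjamini-Hochberg adjustment over all probes and a threshold of 0.05. Programs were tested on simulated data. Precision is limited by how many arrays each group has.

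Members and gene lists were chosen with earlier results of these data known. Named are all members, up to 4 genes per list called in a knockout comparison or between WT mice, by size of change in the total line, 10 neighbors by p and the genes of most similar pattern. Of the genes that this rule names, 1 is not reported here. Klrk1, Hcst, Tyrobp, Ncr1, Eomes, Prss1, Cpa1, Cd48, H2-T23, H2-K1, H2-D1, B2m, Tapbp, Hsph1, Atr and second probes of neighbors were added after their values were seen.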

Additional observations from a re-analysis of the deposited data

How the results depend on the processing

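The 4 shared probes were higher on average in total ChREBP-KO than in WT mice under every alternative that kept them. For A_55_P2091928 the log2 difference was 1.20 to 1.58 with single arrays left out (adjusted p at most 5.15e-05). It was 0.94 on the second scan day alone (adjusted p = 0.0609), when A_55_P2115955 and A_55_P2720213 also lost their call (adjusted p = 0.065 and 0.0595). The count of called probes was 4 to 5 with single arrays left out and 1 on the second scan day. It was 3 under a filter requiring spots found, positive and well above background on all arrays, which kept 3 of the 6 probes. Raet1c lost its call with no filter (adjusted p = 0.0592), slide as a fixed block (0.0991), separate fits (0.138), the exact Mann-Whitney test (0.183) and the second scan day (0.845). Replicate numbers were not treated as pairs in the main fit. Deviations of same-numbered mice correlated at -0.16 to 0.53 in the ChREBPβ line and at -0.21 to 0.24 in the total line. Differently numbered mice were not compared, so these values cannot decide whether the numbers pair mice. With a replicate block A_55_P2091928 differed by 1.37 and Raet1c by 0.65 (adjusted p = 0.0556). In the ChREBPβ line, 0 probes were called under any alternative. A_66_P117930 turned to -0.078 there on the second scan day and ranged from -0.0018 to 0.137 with single arrays left out, the lowest without WT replicate 2. Its difference between WT mice was -1.59 with processed signals and -0.39 after normexp correction. Neighbors were called between WT mice at 46.7% within 0.5 Mb and 22.4% within 10 Mb.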
